A study of Homo sapiens with 6 samples.

Results

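The clustered protocadherins are cell-surface adhesion genes that lie in 3 neighbouring groups, alpha, beta and gamma, on human chromosome 5. They were taken here as every row of the deposited expression table whose gene name began with PCDHA, PCDHB, PCDHGA, PCDHGB or PCDHGC followed by a number, or with PCDHAC. That rule gave 39 of 16311 rows, of which 1 was alpha (PCDHA11), 17 were beta and 21 were gamma. The rule itself reads only names, but the family was selected on the contrast it is described in, the fold changes between the FIR and untreated counts of these same libraries. Its difference between the groups is therefore a description and not independent evidence. The cells were LNCaP, an established line of androgen-sensitive human prostate adenocarcinoma grown in RPMI medium with serum. RNA was sequenced from 3 libraries of cells that had received FIR to a cumulative 40 Gy and from 3 libraries of untreated cells; the labels do not expand FIR, though the series title speaks of radiation. No genetic change, fraction size or time of harvest is stated for either group, and all 6 libraries came from the same parental line. The series title names neuroendocrine-like cells, so the comparison asks which genes differ after the dose.

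Clustered protocadherins are single-pass membrane proteins with extracellular cadherin repeats, best known from neurons, where each cell uses its own combination of them and where like combinations bind one another between cells. Each alpha and gamma gene has its own first exon, with its own promoter, that is spliced to constant exons shared by the whole cluster, whereas each beta gene is a single-exon gene without a constant part. Most of these promoters carry a conserved element with the core CGCT, close to which the insulator protein CTCF can bind together with cohesin, and DNA methylation of the promoters is known to go with silence of the genes.

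The promoter elements are shown because the results differ between genes whose elements are nearly alike. RefSeq (GRCh38.p14) promoters, from 250 bases before to 50 bases after the gene start, were at hand for 33 of the 39 genes. The core is in capitals in the 30-base stretches below, all on the plus strand.
PCDHA11 (chr5:140868879-140868908): cagttttaggcgcaaggtgtCGCTctttac
PCDHB5 (chr5:141135175-141135204): taaattaggacgcctggtggCGCTgcaggc
PCDHB16 (chr5:141182306-141182335): tcagtgagaacgcgtggtggCGCTgcaggt
PCDHB12 (chr5:141208639-141208668): tctgtggagacgcgtggtggCGCTgcagga
PCDHB13 (chr5:141213861-141213890): cctgtgaggacgcgtggtggCGCTgcagga
PCDHGA4 (chr5:141354956-141354985): caggttaagactctgggtgtCGCTgttcac
PCDHGA5 (chr5:141364103-141364132): ctggttaggactctgagtgtCGCTgttgac
PCDHGA6 (chr5:141373831-141373860): taagttaggactctaagcgtCGCTgttgac
PCDHGB5 (chr5:141397859-141397888): ctagtgctgactctgggcgcCGCTgttggc
PCDHGA10 (chr5:141412927-141412956): cttcttaggactctgagcgcCGCTgttcac
PCDHGC3 (chr5:141475876-141475905): ttggctgggactctgtgtgcCGCTgtcggc
Motifs were searched on both strands, and those longer than the core were spelled out after the promoters had been read. The core itself was in all 33 promoters and in 71.9% of the promoters of 27305 genes. GGTGGCGCT was in 13 of 13 beta promoters, in 0 of 19 gamma promoters and in 0.619% of all promoters. GNCGCTGT, where N is any base, was in 16 of 19 gamma promoters, in 1 of 13 beta promoters and in 5.28% of all promoters. Both motifs contain the core, and where RefSeq lists several starts a gene was counted if any of its promoters matched. GATGTCGCT, carried by 9 of 13 annotated alpha promoters and 0.128% of all promoters, was not in that of PCDHA11. TATAAA, the letters of a TATA box, was in 1 of 13 beta and 2 of 19 gamma promoters, beside 14% of all promoters. A match is only a description of letters.

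Read totals over the 16311 listed genes ran from 15703483 to 16542096 in the FIR libraries and from 16805679 to 21004697 in the untreated libraries. Values below are CPM, the reads of a gene in proportion to its library's total after scaling by trimmed means of M values, and 3 reads stood for 0.139 to 0.194 CPM. Fold changes are log2 values of FIR over untreated from edgeR's quasi-likelihood fit on all genes, with its standard error (SE), and a gene is called at a Benjamini-Hochberg adjusted p under 0.05 over all 16311 genes. Across genes the libraries had Spearman correlations of 0.990 to 0.994 within a group and 0.937 to 0.945 between the groups. The labels number the replicates without saying how the cultures were kept apart, so the spread behind each p-value may be technical. In bulk RNA a change in the number of cells that use a gene and a change in the RNA per cell cannot be told apart. The 10 prostate luminal markers all had a row (6 called higher, 2 lower) and summed to 7855 to 8670 CPM in FIR cells, against 7596 to 8251 CPM in untreated cells. Of these KRT8, a keratin of luminal cells, averaged 854 CPM in FIR cells and 492 CPM in untreated cells, and TMPRSS2, an androgen-regulated protease, 911 CPM in FIR cells and 648 CPM in untreated cells. Of 10 neuron markers 2 had a row, NEFL and TUBB3 (the other 8 had none), and they summed to 12.6 to 14.8 CPM in FIR cells, against 2.74 to 3.60 CPM in untreated cells. Of 10 immune and stroma markers 4 had a row (1 called higher, 2 lower), and they summed to 16.2 to 19.8 CPM in FIR cells, against 56.3 to 69.9 CPM in untreated cells, with VWF of endothelium at 5.78 CPM in FIR cells and 36.3 CPM in untreated cells and the collagen COL1A1 at 5.33 CPM in FIR cells and 24 CPM in untreated cells. ACTA2, the marker of this list called higher, averaged 5.83 CPM in FIR cells and 2.62 CPM in untreated cells, and PDGFRB was not called. Beside these marker counts, 25.4% of all genes were called higher and 23.4% lower. The part of these markers in the protocadherin result was not tested.

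Most clustered protocadherins were higher in FIR cells, and none was called lower. Together they summed to 331.5, 351.9 and 337.2 CPM in the FIR libraries, against 139.7, 148.4 and 157.4 CPM in the untreated libraries, a ratio of means of 2.29. Of the 39 genes 32 were called higher, 0 lower and 7 neither way, while of all genes tested 48.7% were called either way, 25.4% higher and 23.4% lower. At least 2-fold higher and called were 27 of the 39, beside 8.62% of all genes. Every FIR library stood above every untreated library for 35 of the 39, beside 29.4% of all genes. The median log2 fold change was 1.42 over the 39 genes, which ranged from -0.32 to 4.31, and 0.0082 over all genes. The authors' deposited table has 34 of the 39 higher and 0 lower by the same cutoff, and PCDHGA2 and PCDHGA11 were the 2 genes called there and not here.

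**Figure D1:**
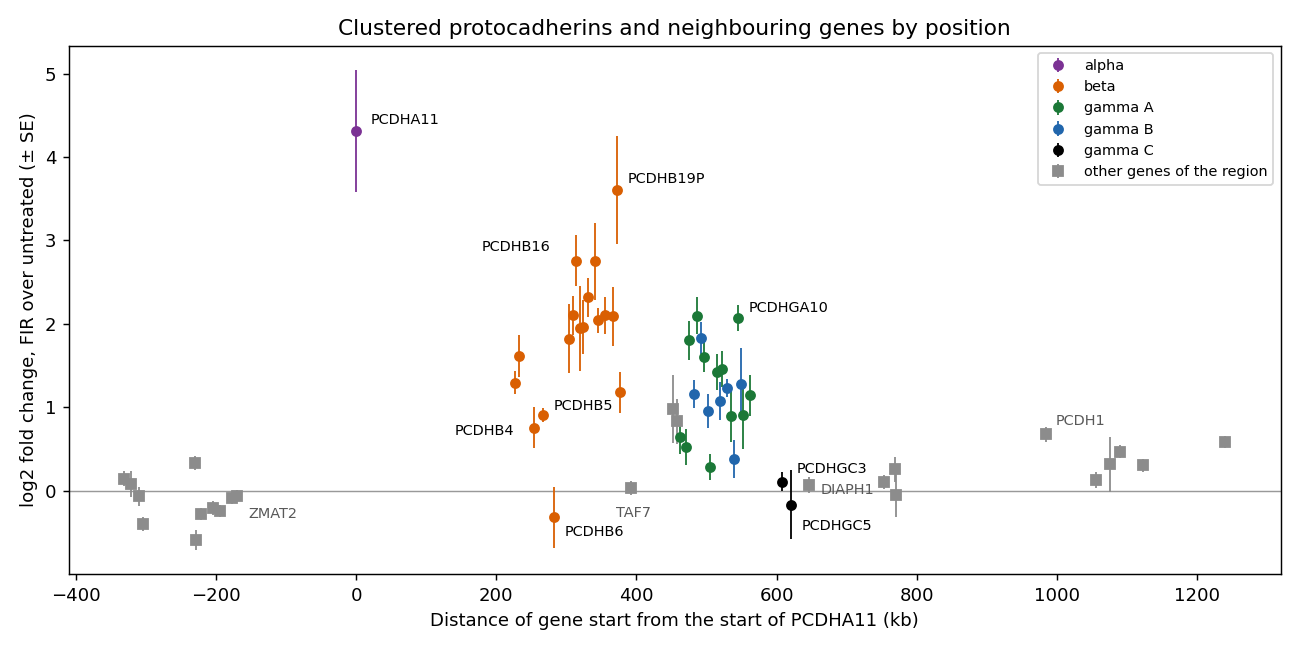
Log2 fold change of FIR over untreated (vertical axis, bars ± SE) against the distance in kb of each gene's start from that of PCDHA11 (horizontal axis), with a point for each of the 39 clustered genes, coloured by group, and grey squares for other genes of the region. Genes of the beta group from PCDHB7 onward and most gamma A and B genes lie above 1, while PCDHB6, PCDHGA6, PCDHGC3 and PCDHGC5 lie between -0.32 and 0.29 and the flanking TAF7, ZMAT2 and DIAPH1 between -0.06 and 0.07.

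The table holds no gene that was low everywhere, which limits what the counts cover. Every row reached 0.605 CPM by library totals in at least 3 libraries, and GENCODE release 29 annotates 59 genes that match the name rule. The 20 without a row were 15 alpha genes, PCDHB1 and PCDHB17P of the beta group, and PCDHGB8P, PCDHGB9P and PCDHGC4 of the gamma group. At 0.6 CPM, 10 genes met this floor only through the FIR libraries, and so were bound to be high there. PCDHA11, PCDHB9, PCDHB12 and PCDHB19P reached it in no untreated library, and PCDHB7, PCDHB10, PCDHB16, PCDHB18P, PCDHGB7 and PCDHGA11 in fewer than 3. The calls, SEs and intervals of these 10, above and below, are a description only, and no test is read from them. Of the 28 genes that reached 0.6 CPM in all 3 untreated libraries 23 were called higher, beside 25.4% of all genes in the table. The share among all genes that reached this level in the untreated libraries was not counted. The counts above are therefore a description of the listed genes.

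Of the alpha cluster, known from mice for its part in the wiring of olfactory and serotonergic axons, PCDHA11 alone was listed. It had 25, 15 and 16 reads in the FIR libraries, against 0, 0 and 3 reads in the untreated libraries, and the groups did not overlap. As CPM these were 1.53, 0.972 and 1.01 in FIR cells and 0, 0 and 0.175 in untreated cells. The ratio of the summed reads, scaled for depth, was 22.6, with a 95% counting interval of 7.36 to 113 that covers counting error only. Its fitted log2 fold change of 4.31 depends on the prior count and on single libraries. It was 7.37 without untreated replicate 3, which held all 3 untreated reads, and 3.69 without untreated replicate 2. As the gene was listed only because it was high in FIR cells, no test is read from it. PCDHA11 runs from 140868183 to 141012344 on chromosome 5 (hg38), an extent that includes the constant exons of the alpha cluster.

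The beta cluster was the part of the locus with the largest summed difference. Its 17 genes summed to 156.7, 171.3 and 155.2 CPM in the FIR libraries, against 54.9, 59.5 and 68.4 CPM in the untreated libraries, with means of 161 ± 8.88 in FIR cells and 60.9 ± 6.87 in untreated cells (SD, n = 3 each) and a ratio of 2.64. Of the 17 genes 16 were called higher and 14 of them at least 2-fold, beside 25.4% and 8.62% of all genes. The median log2 fold change of the 17 was 1.96. These counts and the median include PCDHB7, PCDHB9, PCDHB10, PCDHB12, PCDHB16, PCDHB18P and PCDHB19P. Those genes met the floor of the table only through the FIR libraries and so were bound to be high there. The pseudogenes PCDHB18P and PCDHB19P were among those called, and PCDHB6 was not.

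PCDHB5, at 141135218 to 141138625 (hg38), was the most abundant clustered protocadherin in both groups. It had 53.0, 57.4 and 53.5 CPM in the FIR libraries, against 27.0, 29.5 and 30.8 CPM in the untreated libraries. The groups were far apart, yet its log2 fold change of 0.91 (SE 0.09; edgeR adjusted p 8.1e-07) exceeded only those of PCDHB4 and PCDHB6 among the beta genes. It supplied 33.9% ± 0.47 of the beta CPM in FIR cells and 47.9% ± 2.5 in untreated cells (SD, n = 3 each). Without PCDHB5 the beta sum was 106 ± 6.52 CPM in FIR cells and 31.8 ± 5.10 CPM in untreated cells, a ratio of 3.34.

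PCDHB13, at 141213919 to 141218979 (hg38), was among the next most abundant beta genes in FIR cells. It had 18.3, 20.99 and 21.5 CPM in the FIR libraries, against 4.64, 4.597 and 5.54 CPM in the untreated libraries. Its log2 fold change was 2.04 (SE 0.15), and its adjusted p of 2.5e-08 in edgeR's quasi-likelihood test was the lowest of the 39 genes. Its share of the beta CPM averaged 12.6% in FIR cells and 8.10% in untreated cells.

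PCDHB14, its downstream neighbour, had 16.9, 19.9 and 15.1 CPM in the FIR libraries, against 2.56, 3.85 and 5.72 CPM in the untreated libraries. The untreated libraries spread over more than a doubling for this gene, but none reached the lowest FIR library, and the log2 fold change was 2.11 (SE 0.22). PCDHB2, at the upstream end, had 18.3, 17.8 and 17.7 CPM in the FIR libraries, against 7.77, 6.41 and 7.76 CPM in the untreated libraries. Both groups were tight here, with a log2 fold change of 1.29 (SE 0.14).

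PCDHB16 and PCDHB12 were scarcer and had higher folds. PCDHB16 had 4.34, 4.73 and 3.33 CPM in the FIR libraries, against 0.470, 0.696 and 0.642 CPM in the untreated libraries. Its log2 fold change was 2.76 (SE 0.30). PCDHB12 had 2.88, 1.68 and 1.45 CPM in the FIR libraries, against 0.156, 0.464 and 0.233 CPM in the untreated libraries, a log2 fold change of 2.75 (SE 0.46). The groups did not overlap for either, although PCDHB12 rested on 96 reads in FIR cells and 17 reads in untreated cells. PCDHB16 and PCDHB12 both met the floor of the table only through the FIR libraries, so no test is read from them.

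PCDHB19P, annotated as a pseudogene, had 1.10, 0.713 and 0.943 CPM in the FIR libraries, against 0, 0.093 and 0.117 CPM in the untreated libraries. These were 44 reads in FIR cells and 4 reads in untreated cells, a ratio of 13.3 once scaled for depth (95% counting interval 4.86 to 51.1). PCDHB19P too was listed only because it was high in FIR cells, so no test is read from it. At the downstream end PCDHB15 had 6.55, 9.39 and 9.31 CPM in the FIR libraries, against 2.97, 2.88 and 5.37 CPM in the untreated libraries. Its groups stood closer together, with a log2 fold change of 1.18 (SE 0.24; edgeR adjusted p 9.3e-04).

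PCDHB6 was the beta gene that was not called. It had 0.979, 1.30 and 0.755 CPM in the FIR libraries, against 0.887, 1.49 and 1.40 CPM in the untreated libraries. The groups overlapped, and the log2 fold change of -0.32 had 95% bounds of -1.10 and 0.46 (edgeR adjusted p 0.50). PCDHB4 was called with a log2 fold change of 0.76 (SE 0.24), and lost the call without untreated replicate 2 (adjusted p 0.052) or FIR replicate 2 (adjusted p 0.091). The other beta genes, PCDHB3, PCDHB7, PCDHB8, PCDHB9, PCDHB10, PCDHB11 and PCDHB18P, had log2 fold changes from 1.61 (PCDHB3) to 2.32 (PCDHB11), and each was called. PCDHB7, PCDHB9, PCDHB10 and PCDHB18P met the floor of the table only through the FIR libraries, so no test is read from their calls. PCDHB9 had 1.95, and 2.60 without untreated replicate 2.

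Along the beta cluster the fold changes fell into stretches, which were drawn after the values were seen and so have no test. From PCDHB2 to PCDHB6 the 5 genes had log2 fold changes from -0.32 to 1.61 with a median of 0.91. From PCDHB7 to PCDHB14 the 9 genes lay between 1.82 and 2.76 with a median of 2.10. The last 3, PCDHB18P, PCDHB19P and PCDHB15, had 2.09, 3.60 and 1.18. Over the 17 beta genes the log2 fold change had a Spearman correlation of 0.56 with order along the chromosome (n = 17). These points share libraries and, in part, sequence. PCDHB7, PCDHB16, PCDHB9, PCDHB10, PCDHB12, PCDHB18P and PCDHB19P met the 0.6 CPM floor only through the FIR libraries, and so were bound to be high there. The genes from PCDHB2 to PCDHB6 reached it in every untreated library. The stretches and the correlation therefore rest in part on the floor of the table. All 13 beta genes with a promoter entry carried GGTGGCGCT, both those with small fold changes (PCDHB4, PCDHB5) and those with large ones (PCDHB16, PCDHB12). That motif was spelled out after these promoters had been read, and its part in the fold changes was not tested. PCDHB6, PCDHB11, PCDHB18P and PCDHB19P had no promoter entry, so the beta genes of lowest and highest fold change were not looked at.

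**Figure D2:**
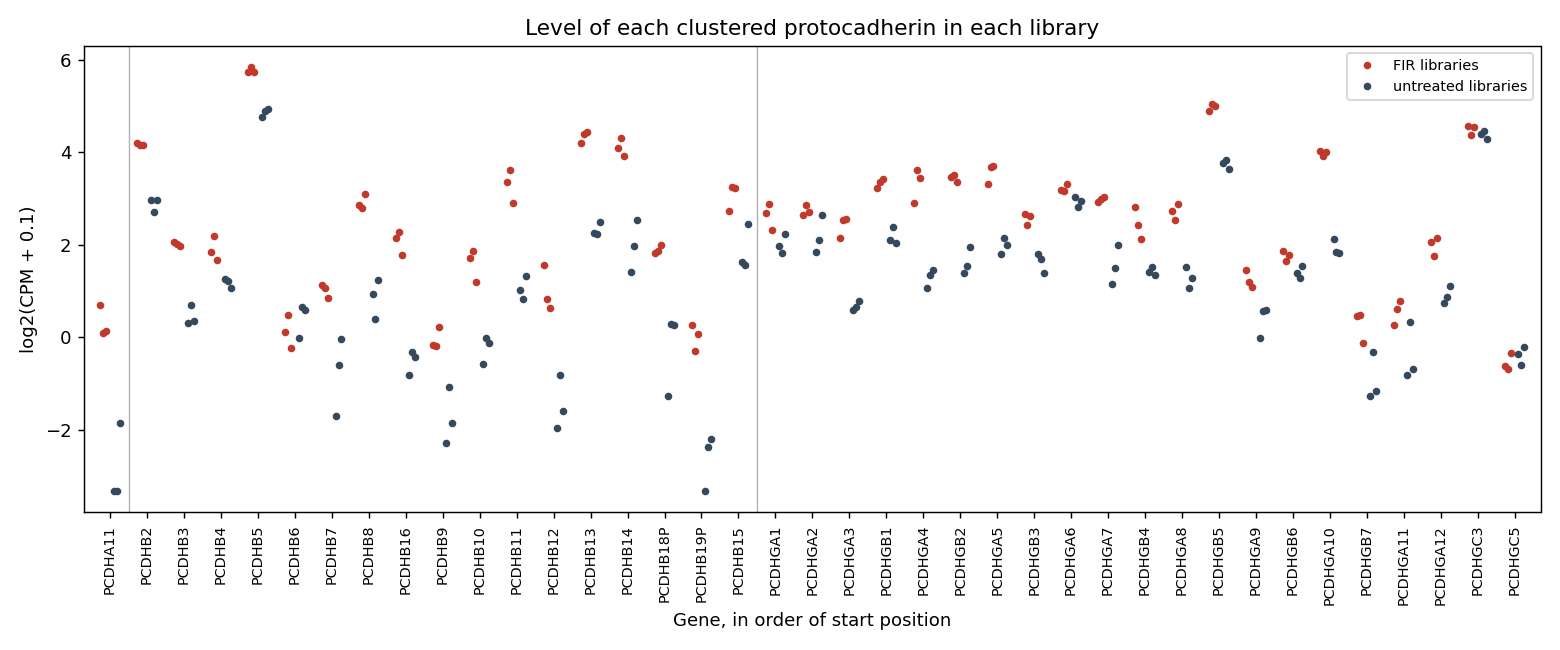
Level as log2(CPM + 0.1) in each library (1 point each) for the 39 clustered protocadherins in order of start position, FIR libraries left of untreated libraries within each gene and vertical lines between the clusters. The FIR points of PCDHB13, PCDHB14, PCDHB16 and PCDHGA10 stand clear above their untreated points, while those of PCDHGC3 (20.5 to 23.6 CPM in FIR cells, 19.5 to 21.9 CPM in untreated cells) interleave.

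The gamma cluster holds 3 kinds of gene, A, B and C, of which the A and B kinds were for the most part called higher and the C kind was not. The 12 gamma A genes summed to 81.4, 89.3 and 89.7 CPM in the FIR libraries, against 34.3, 35.3 and 40.2 CPM in the untreated libraries, a ratio of means of 2.37. The 7 gamma B genes summed to 67.7, 69.3 and 67.4 CPM in the FIR libraries, against 28.9, 31.2 and 28.4 CPM in the untreated libraries, a ratio of 2.31. The 2 gamma C genes summed to 24.2, 21.1 and 23.9 CPM in the FIR libraries, against 21.6, 22.4 and 20.3 CPM in the untreated libraries, a ratio of 1.07. FIR and untreated sums were thus apart for the A and B kinds and overlapped for the C kind; the difference between the kinds was not tested. Of the A genes 9 of 12 were called higher, of the B genes 6 of 7 and of the C genes 0 of 2, beside 25.4% of all genes. The B count includes PCDHGB7, which met the floor of the table only through the FIR libraries. With 2 C genes, of which PCDHGC5 was scarce, no difference from that share is read for the C kind.

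**Figure D3:**
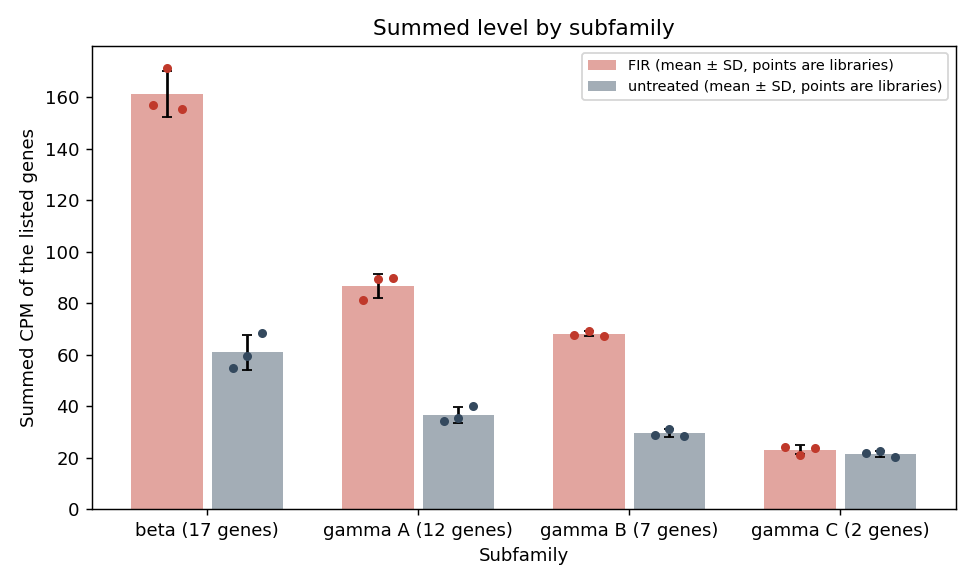
Summed CPM of the beta, gamma A, gamma B and gamma C genes in each library (points) with the mean and SD of 3 libraries, FIR left of untreated. The beta sums reach 155.2 to 171.3 in FIR cells, against 54.9 to 68.4 in untreated cells, and the gamma C sums lie between 20.3 and 24.2 in all 6 libraries.

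PCDHGA10, at 141412987 to 141512979 (hg38), was the gamma gene with the lowest adjusted p. It had 16.3, 15.03 and 15.9 CPM in the FIR libraries, against 4.28, 3.48 and 3.44 CPM in the untreated libraries. The log2 fold change was 2.08 (SE 0.16; edgeR adjusted p 4.3e-08), and its share of the gamma CPM averaged 8.86% in FIR cells and 4.28% in untreated cells. PCDHGA4 had 7.40, 12.2 and 10.8 CPM in the FIR libraries, against 1.98, 2.46 and 2.63 CPM in the untreated libraries. Its groups were also apart, with a log2 fold change of 2.10 (SE 0.22), the largest of the gamma genes. PCDHGA5 had 9.79, 12.7 and 12.9 CPM in the FIR libraries, against 3.39, 4.32 and 3.91 CPM in the untreated libraries, a log2 fold change of 1.6 (SE 0.18).

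Among gamma B genes PCDHGB5 was the most abundant. It had 29.5, 33.0 and 32.1 CPM in the FIR libraries, against 13.5, 14.3 and 12.4 CPM in the untreated libraries, with a log2 fold change of 1.23 (SE 0.11; edgeR adjusted p 3.2e-07). Its share of the gamma CPM was 17.7% in FIR cells and 15.3% in untreated cells. PCDHGB2 had 11.01, 11.3 and 10.1 CPM in the FIR libraries, against 2.504, 2.83 and 3.79 CPM in the untreated libraries. The groups did not overlap for either gene, and PCDHGB2 had the largest fold of its kind, 1.83 on the log2 scale (SE 0.19).

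PCDHGC3, the widely expressed C-type gene at 141475947 to 141512977 (hg38), was the gamma gene with the most CPM in untreated cells, and it was not called. It had 23.6, 20.5 and 23.2 CPM in the FIR libraries, against 20.97, 21.9 and 19.5 CPM in the untreated libraries. The groups overlapped, and the log2 fold change of 0.11 (SE 0.11; edgeR adjusted p 0.44) had 95% bounds of -0.13 and 0.35, and a difference as large as that of PCDHGB5 lies outside them. Its share of the gamma CPM was 12.6% ± 1.1 in FIR cells and 23.8% ± 1.5 in untreated cells (SD, n = 3 each). Without PCDHGC3 the gamma sum was 156 ± 5.14 CPM in FIR cells and 66.8 ± 2.73 CPM in untreated cells, a ratio of 2.33. PCDHGC5, a C-type gene known from neurons, had 0.551, 0.518 and 0.692 CPM in the FIR libraries, against 0.678, 0.557 and 0.759 CPM in the untreated libraries. Its log2 fold change of -0.17 (95% bounds -1.05 and 0.71) came with groups that overlapped.

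Among the A and B kinds 4 genes were not called. PCDHGA6 had 9.05, 8.81 and 9.81 CPM in the FIR libraries, against 8.14, 6.92 and 7.64 CPM in the untreated libraries. The FIR libraries were all higher, but the log2 fold change was only 0.29 (SE 0.15; edgeR adjusted p 0.13; 95% bounds -0.04 and 0.61). PCDHGB6 had a log2 fold change of 0.38 (SE 0.23; edgeR adjusted p 0.18). PCDHGA2 had 6.18, 7.13 and 6.41 CPM in the FIR libraries, against 3.50, 4.18 and 6.13 CPM in the untreated libraries, and its log2 fold change of 0.52 (edgeR adjusted p 0.056) became 0.75 and was called without untreated replicate 3. PCDHGA11 had a log2 fold change of 0.91 (edgeR adjusted p 0.077), which became 1.45 and was called without untreated replicate 2. PCDHGA11 met the floor of the table only through the FIR libraries. Of the 5 gamma genes not called that have a promoter entry, PCDHGA6, PCDHGB6, PCDHGA2 and PCDHGC3 carried the motif GNCGCTGT and PCDHGA11 did not.

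The other gamma genes were called, with log2 fold changes from 0.65 (PCDHGA1) to 1.80 (PCDHGA3). Of these, 3 lost the call when single libraries were left out. PCDHGA1 did so without untreated replicate 2, FIR replicate 1 or FIR replicate 2, with edgeR adjusted p-values of 0.088, 0.053 and 0.086. PCDHGA9 (0.89, SE 0.31) did so without untreated replicate 1 or FIR replicate 1, with adjusted p-values of 0.11 and 0.089. PCDHGB7 (1.28, SE 0.44) did so without untreated replicate 1 or 3 or FIR replicate 1 or 2, with adjusted p-values between 0.066 and 0.091. It met the floor of the table only through the FIR libraries, so its call is a description only. Along the gamma A and B genes the log2 fold change had a Spearman correlation of -0.06 with order on the chromosome (n = 19), and with the C kind at the downstream end it was -0.31 (n = 21). No difference from the 0.56 along the beta genes was tested.

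How far the rows measure single genes differs by gene. The gamma constant exons, 2179 bases common to at least 15 of the listed gamma genes, were not counted for each of them, since PCDHGB7 had as few as 6 reads in a library in which gamma reads summed to 1523 or more. Words of 100 bases were taken from the annotated transcripts, and those held by 10 or more clustered genes were set aside as constant. Of the remaining words of PCDHGB4 54.2% also stood in another clustered gene, as did 34.3% of those of PCDHGA8, 24.7% of PCDHB8, 23.8% of PCDHB10, 14.8% of PCDHGB5, 14.5% of PCDHB13 and 10.5% of PCDHB2. Values of these 7 genes are uncertain to that extent, because the handling of reads that map to several places is not given in the sources used here. PCDHGB4 and PCDHGA8 differ from the rest, as their own exons overlap each other at the same place on the chromosome. For this pair the question is how reads lying in both genes were assigned, which is not given either. The strand setting is likewise not given, and 13 of the 17 beta genes have another annotated gene over part of their exons, so reads of overlapping transcripts cannot be told apart.

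Levels were compared between genes per kb of own exon bases, those in no exon of another gene. In this unit PCDHB5 led with 18.8 ± 0.83 CPM per kb in FIR cells and 10.0 ± 0.66 CPM per kb in untreated cells (SD, n = 3 each). PCDHGB5 had 11.8 ± 0.68 CPM per kb in FIR cells and 5.01 ± 0.34 CPM per kb in untreated cells. PCDHGC3 had 6.91 ± 0.51 CPM per kb in FIR cells, where it came after PCDHGB5, and 6.40 ± 0.36 CPM per kb in untreated cells, where it came before it. In both groups these neighbours in the order differed by more than their SDs. At the bottom in FIR cells were PCDHGC5 (0.209 CPM per kb), PCDHB9 (0.216 CPM per kb) and PCDHB6 (0.315 CPM per kb).

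Otherwise the order of the genes was much alike in both groups. The level per kb in FIR cells had a Spearman correlation with that in untreated cells of 0.88 over the 17 beta genes and 0.82 over the 21 gamma genes. These correlations describe genes measured in the same libraries.

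**Figure D4:**
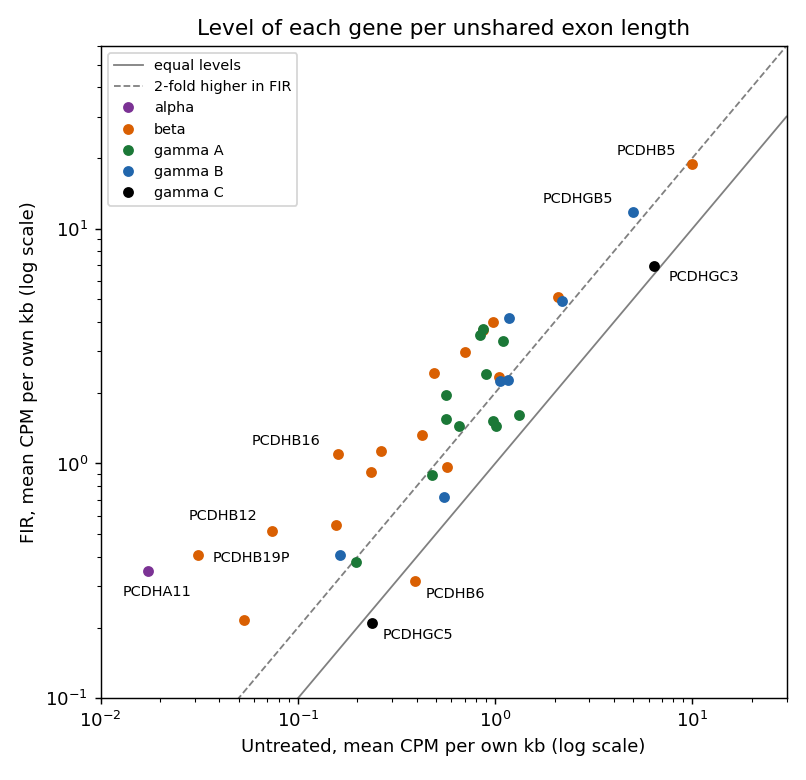
Level in FIR cells (vertical axis) against level in untreated cells (horizontal axis), both in CPM per kb of own exon bases on log axes, with 1 point for each of the 39 genes, a solid line of equal level and a dashed line at 2-fold higher in FIR cells. Most points lie above the line, PCDHGC3 (6.91 in FIR cells, 6.40 in untreated cells) lies close to it, and PCDHB6 and PCDHGC5 lie below it.

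Genes around the clusters each differed by less than 2-fold. Of 24 listed neighbours 20 had a row, of which 4 were called higher, 4 lower and 12 neither way, beside 25.4% higher and 23.4% lower of all genes, with log2 fold changes from -0.59 (TMCO6) to 0.58 (NDFIP1) and a median of 0.05. TAF7, a subunit of the general transcription factor TFIID that lies between the beta and gamma clusters, had 169 ± 11.7 CPM in FIR cells and 166 ± 13.1 CPM in untreated cells (SD, n = 3 each), a log2 fold change of 0.03 (SE 0.08; edgeR adjusted p 0.77). ZMAT2, upstream of the alpha cluster, had a log2 fold change of -0.06, and DIAPH1, downstream of the gamma cluster, one of 0.07. The noncoding rows AC005618.4 and AC005618.1, just upstream of the first gamma gene and picked out after their values were seen, had log2 fold changes of 0.98 (edgeR adjusted p 0.059) and 0.83 (edgeR adjusted p 0.017).

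Protocadherins outside the clusters differed in both directions. Of 12 listed genes 4 had a row, with 2 called higher and 1 lower, beside 25.4% higher and 23.4% lower of all genes. With 4 genes no difference from those shares is read. PCDH1, which lies on chromosome 5 beyond the clusters and is known from airway epithelium, averaged 52.1 ± 2.25 CPM in FIR cells and 32.5 ± 2.0 CPM in untreated cells, a log2 fold change of 0.68 (SE 0.09; edgeR adjusted p 1.4e-05). PCDH9 averaged 1.47 CPM in FIR cells and 0.31 CPM in untreated cells, and PCDH11X 0.484 CPM in FIR cells and 1.39 CPM in untreated cells. PCDH9 reached 0.6 CPM in no untreated library, so it met the floor of the table only through the FIR libraries. PCDH11X reached 0.6 CPM in every untreated library, but among the FIR libraries only in replicate 3 (0.692 CPM). It would thus have been listed through its untreated libraries alone. The calls of PCDH9 and PCDH11X are a description only, and no test is read from them.

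CTCF, which binds the clustered promoters, averaged 66.2 ± 3.39 CPM in FIR cells and 73.6 ± 1.87 CPM in untreated cells, and its log2 fold change of -0.15 (SE 0.08) was not called (edgeR adjusted p 0.12), although it was with library-size scaling (adjusted p 0.037). Of 16 genes of CTCF and cohesin 3 were called higher, 8 lower and 5 neither way, beside 25.4% higher and 23.4% lower of all genes, with a median log2 fold change of -0.22. NIPBL, a loader of the ring and 1 of the 3 called higher, lost its call in 8 of 14 other settings (adjusted p 0.051 to 0.13). The ring subunits fell, with log2 fold changes of -0.84 for RAD21, -0.83 for SMC1A and -0.97 for SMC3, as did STAG1 with -1.21. STAG2, the other adaptor of the ring, rose by 0.33 on the log2 scale. ESCO2 and CDCA5, which act on cohesin during DNA replication, had 0.336 and 2.02 CPM in FIR cells, against 32.8 and 70.0 CPM in untreated cells. The part of these genes in the protocadherin result was not tested.

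A list of factors for silencing and DNA methylation also holds TET1, TET2 and TET3, the enzymes that start the removal of DNA methylation. Of its 21 genes 20 had a row, with 5 called higher, 9 lower and 6 neither way, beside 25.4% higher and 23.4% lower of all genes, and a median log2 fold change of -0.26. TET2 was among the 5 higher, with 0.51 on the log2 scale. DNMT1, the maintenance DNA methyltransferase, averaged 70.1 CPM in FIR cells and 220 CPM in untreated cells. UHRF1, which recruits it, averaged 1.49 CPM in FIR cells and 73.8 CPM in untreated cells, and HELLS, a remodelling enzyme needed for methylation of repeats, 4.94 CPM in FIR cells and 40.0 CPM in untreated cells. EZH2 and DNMT3B had log2 fold changes of -2.22 and -1.19. SMCHD1 and SETDB1, both known from mice to hold clustered protocadherins down, had log2 fold changes of 0.06 (edgeR adjusted p 0.61) and -0.02 (edgeR adjusted p 0.86). REST, a repressor of neuronal genes, had 0.21 (edgeR adjusted p 0.048), a call lost in 10 of 14 other settings (adjusted p 0.054 to 0.18). No methylation or binding was measured, and the part of these factors was not tested.

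Of the genes for proteins that bind, cleave or signal from clustered protocadherins, 20 of 21 had a row, with 12 called higher, 1 lower and 7 not called, beside 25.4% higher and 23.4% lower of all genes, and a median log2 fold change of 0.22. The 12 became 8 without untreated replicate 2 and 9 with library-size scaling, and CTNNB1, MARCKS and RAC1 lost their calls in 9, 5 and 4 of 14 other settings. ADAM10, the protease known to shed gamma protocadherins, averaged 304 ± 12.6 CPM in FIR cells and 155 ± 2.90 CPM in untreated cells (SD, n = 3 each), a log2 fold change of 0.98 (SE 0.07). PRKCA, which encodes a protein kinase C, averaged 30.8 ± 3.15 CPM in FIR cells and 13.5 ± 1.81 CPM in untreated cells, a log2 fold change of 1.19 (SE 0.13). PTK2B and PTK2 encode the focal adhesion kinases PYK2 and FAK, which gamma protocadherins are known to inhibit, and had log2 fold changes of 0.94, called, and -0.11, not called. CYFIP2, of the WAVE complex that binds several protocadherins, had 0.87, and AXIN1, the member called lower, had -0.32.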

How the data were processed

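For each of 6 libraries the authors deposited raw counts of reads by gene, per the file headers, beside their own log2 fold changes, p-values and adjusted p-values. The submitters' processing notes name, with no settings, hg38, STAR 2.5, featureCounts, edgeR 3.20.8, Subread 1.6.2 and bcl2fastq. The sources used here do not give the annotation release, the strand setting, the handling of reads that map to several places or the low-count filter. In all, 12 further columns of per-sample values were not used.

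Counts were scaled by TMM and tested with edgeR 4.0.16 under R 4.3.3 (glmQLFit and glmQLFTest with group as the term). Adjustment by Benjamini-Hochberg covered all 16311 genes, and the threshold was 0.05. No gene was lost to filterByExpr at a minimum count of 10. The SE was obtained by dividing the log2 fold change by the root of F; 95% bounds of fold changes come from the fit, and counting intervals cover counting error only. The pipeline was tested on simulated counts. Rows were placed with GENCODE release 29 and promoters taken from RefSeq (GRCh38.p14).

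Members, gene lists and motifs were chosen with earlier results of these data known. Printed in every library were, within each cluster, the 5 genes of highest mean CPM and the 3 called genes of largest change, and the C-type genes. Of each other list the text names, by mean or fold change, the 2 called genes that changed most among those averaging 1 CPM or more. Other genes named were added after their values were seen. Library pairs within a group differed by 4.75 to 14.6 in chi-square per degree of freedom, so none looked like a repeat of another. Tried as alternatives were DESeq2 1.42.0, voom (limma 3.58.1), scaling by library size, by upper quartile and by RLE, no filter, a floor of 1 CPM in 3 libraries, a block on replicate number, and leaving out each library in turn.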

Additional observations from a re-analysis of the deposited data

How the results depend on the processing

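Under 14 other settings 0 of the 39 clustered protocadherins changed direction while called, and 28 of the 32 called higher stayed so wherever they were tested. The beta genes called higher numbered 15 to 16 and the gamma genes 12 to 15 when 1 library was left out, with the low of 12 without FIR replicate 1, and 0 were lower in any setting. A filter of 1 CPM in 3 libraries removed 5 clustered genes, PCDHA11 among them, so that the alpha cluster had 0 genes higher, and it left 1 unclustered protocadherin called higher. PCDHGB7 lost its call in DESeq2 (adjusted p 0.058). The median log2 fold change of the clustered genes ran from 1.33 to 1.498 and that of all genes from -0.05 to 0.0093.

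Replicate numbers did not pair the libraries: deviations of same-numbered libraries from their group means had correlations of 0.03, -0.05 and -0.07. With the replicate number as a block, 1 alpha, 16 beta and 16 gamma genes were called higher, the gain being PCDHGA2 (adjusted p 0.040), and 3988 of all genes were higher and 3668 lower.

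Depth limits the scarce genes most. PCDHA11, PCDHB12 and PCDHB19P rest on few untreated reads, and the 95% bounds of PCDHGC5 and PCDHB6 reach down to -1.05 and -1.10 on the log2 scale. Genes low in every library have no row here.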
